A study of Mus musculus with 2 samples.

Results

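The 4 miRNA genes described here, Mir375, Mir7-1, Mir7-2 and Mir7b, encode miR-375 and miR-7, miRNAs best known from endocrine cells. They were chosen by name, and all 4 have a row among the 1973 annotated miRNA genes counted. The tissue was kidney of B6NCrl mouse embryos at 14.5 days, in 1 group of 2 biological replicates, with no second condition. Each replicate was made from 2 kidneys, and the libraries covered RNA shorter than 30 nucleotides. The labels name a single pup for each replicate, on different collection days, but also give material of both sexes and a donor identifier that both share, so the number of embryos behind a replicate is not settled. Every SD given here therefore describes how far apart these samples lay, and some of that distance may be technical.

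miR-375 is abundant in the endocrine cells of the pancreatic islet, where it restrains insulin secretion and is needed for a normal mass of endocrine cells. It is also found in pituitary, adrenal medulla and several mucosal epithelia. miR-7 is enriched in islet and other neuroendocrine cells and in neurons, and in mouse it restrains insulin secretion and the growth of adult beta cells. A mature miRNA is cut from a hairpin RNA, and its seed, bases 2 to 8, leads the pairing with target mRNAs.

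The miR-7 sequences are shown first because the copies share them, and a read from a shared stretch cannot be placed at 1 gene. All 4 genes matched a hairpin in RefSeq (build GRCm38.p6, the assembly also called mm10). The hairpins run 5′ to 3′, and capitals mark the mature arms that RefSeq lists. For Mir375 the list holds 1 arm, so miR-375-3p is named only and is not in capitals. The capitals therefore do not show which arm gave the Mir375 counts, and this was not tested.
Mir375: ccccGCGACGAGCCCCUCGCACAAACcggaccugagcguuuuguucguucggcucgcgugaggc
Mir7-1: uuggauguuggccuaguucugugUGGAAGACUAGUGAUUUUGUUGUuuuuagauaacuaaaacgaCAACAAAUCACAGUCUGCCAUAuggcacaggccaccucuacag
Mir7-2: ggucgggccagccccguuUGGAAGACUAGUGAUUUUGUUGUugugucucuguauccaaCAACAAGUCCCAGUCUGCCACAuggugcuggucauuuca
Mir7b: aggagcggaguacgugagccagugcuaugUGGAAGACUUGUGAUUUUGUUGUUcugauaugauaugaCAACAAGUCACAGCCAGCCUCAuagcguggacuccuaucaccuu

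The mature sequences of the miR-7 genes are set side by side below, with the seed in capitals, to show what the copies have in common.
miR-7a-5p: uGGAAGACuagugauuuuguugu
miR-7b-5p: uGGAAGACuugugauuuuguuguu
miR-7a-1-3p: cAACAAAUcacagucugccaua
miR-7a-2-3p: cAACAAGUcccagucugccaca
miR-7b-3p: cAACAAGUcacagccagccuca
miR-7a-5p is listed for both Mir7-1 and Mir7-2, letter for letter. miR-7b-5p differs from it by A10U, with positions counted from 1 at the 5′ end of miR-7a-5p, and is 24 bases long against 23. The seed GGAAGAC is held by 2 of the 1679 mature miRNA names in the RefSeq table, miR-7a-5p and miR-7b-5p, from 3 genes, so these 3 genes make up the whole seed family there. The 3p arms are less alike. miR-7a-1-3p and miR-7a-2-3p differ by A7G, A10C and U21C, the first of which lies in the seed. miR-7a-2-3p and miR-7b-3p share the seed AACAAGU and differ at 4 positions outside it.

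Among annotated miRNA hairpins, stretches of 21 bases shared within 1 mismatch were confined to the 5p side of the miR-7 genes. Mir7-1 and Mir7-2 have a run of 24 identical bases, which holds miR-7a-5p whole, while the longest run either shares with Mir7b is 14 bases. Of the 88 windows of 21 bases in the Mir7-1 hairpin, 4 occur exactly in another annotated miRNA gene, as do 4 of 77 in Mir7-2. In Mir7b, 0 of 91 windows do, but 6 match Mir7-1 or Mir7-2 with 1 mismatch. Mir375 has 0 of 44 windows in another miRNA gene, even with 1 mismatch, and its longest run shared with a miR-7 hairpin is 7 bases. Windows inside the 3p arms of the miR-7 genes occur in no other miRNA gene within 1 mismatch. Across 141767 annotated transcripts, miR-7a-5p was found in Mir7-1 and Mir7-2, and each of the other listed arms in its own gene alone. Spliced transcripts were searched, not the whole genome.

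**Figure D1:**
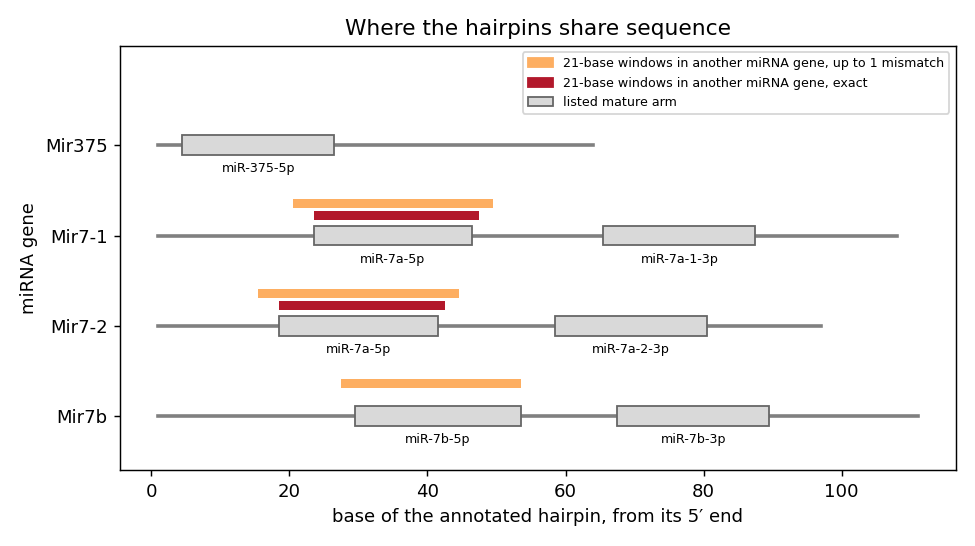
Horizontal lines are the annotated hairpins of the 4 genes, in bases from the 5′ end, and grey boxes are the mature arms listed by RefSeq. Red and orange bars span the windows of 21 bases found in another annotated miRNA gene, exactly or with up to 1 mismatch. They cover the 5p side of Mir7-1 and Mir7-2, only the orange bar appears on Mir7b, and Mir375 has neither.

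The 4 genes lie on different chromosomes, and 1 of them lies inside another gene. Mir7-1 (ENSMUSG00000065434.1; chr13:58392779-58392886, minus strand) lies within Hnrnpk on the same strand, a gene for an RNA-binding protein. It is intronic in all 12 of the Hnrnpk transcripts that span it. Mir375 (ENSMUSG00000065616.2; chr1:74900658-74900721, minus strand) is intergenic, 7515 bases from the lens crystallin gene Cryba2 and 1350 bases from Cfap65, both on its strand. The annotation that gave this position carries a later version of the Mir375 identifier than the counts do. Mir7-2 (ENSMUSG00000065609.1; chr7:78888277-78888373, plus strand) is intergenic, with Aen 7481 bases away. Mir7b (ENSMUSG00000065491.1; chr17:56242988-56243098, plus strand) lies 183 bases from the end of the noncoding transcript AC026385.1 on the same strand.

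The counts on each gene's own strand were used, and the library totals on that strand were 5202588 in replicate 1 and 3683978 in replicate 2. CPM is counts per 1000000 of these. At these totals 3 counts, about the one-sided 95% limit that a count of 0 allows, correspond to 0.577 CPM and 0.814 CPM. Each limit given here for a count of 0 uses these 3 counts. Reads that mapped to several places, 28.3% and 27.5% of all reads, belong to no gene's count. The epithelial miR-200 genes, 5 of 5 detected beside 345 of all 1973 genes, held 2.51% ± 0.234 of counts (SD, n = 2). Mir122, the miRNA of hepatocytes, differed widely, with 56.3 CPM in the first library and 1074 CPM in the second. None of the lists used here marks kidney alone.

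Of the reads placed at a single gene, Mir375 was the main source among these genes, and Mir7-1 the main source among the miR-7 copies. Mir375 had 4081 counts in replicate 1 and 2926 in replicate 2, which is 784 CPM (95% exact Poisson interval 761 to 809) and 794 CPM (766 to 824). The intervals of the replicates overlap, and the mean was 789 ± 6.95 CPM (SD, n = 2). All intervals here cover counting error only, and amplified reads that carry no molecular identifier do not count molecules independently. In this bulk tissue, few cells with much miR-375 and many cells with little cannot be told apart, and the same holds for miR-7.

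Mir7-1, the copy in the Hnrnpk intron, had 414 counts in replicate 1 and 280 in replicate 2. These are 79.6 CPM (72.1 to 87.6) and 76.0 CPM (67.4 to 85.4), with a mean of 77.8 ± 2.53 CPM (SD, n = 2). The replicates' intervals overlap for this gene too. Mir7-2, which encodes the same miR-7a-5p, had 34 counts and 27 counts, or 6.54 CPM (4.53 to 9.13) and 7.33 CPM (4.83 to 10.7), again overlapping. Its mean was 6.93 ± 0.561 CPM (SD, n = 2).

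Mir7b, the copy with the A10U difference, had the lowest mean of the 4 and the widest spread between replicates. It had 13 counts in replicate 1, or 2.50 CPM (1.33 to 4.27), and 24 counts in replicate 2, or 6.51 CPM (4.17 to 9.69). Replicate 1 was low and replicate 2 high, and the ends of the intervals just overlap. The mean of 4.51 ± 2.84 CPM (SD, n = 2) corresponds to a coefficient of variation of 63.0%, against 0.881% for Mir375, 3.25% for Mir7-1 and 8.10% for Mir7-2. The Mir7b level rests on which library is read: it was 6.51 CPM from replicate 2 alone and 2.50 CPM from replicate 1 alone.

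**Figure D2:**
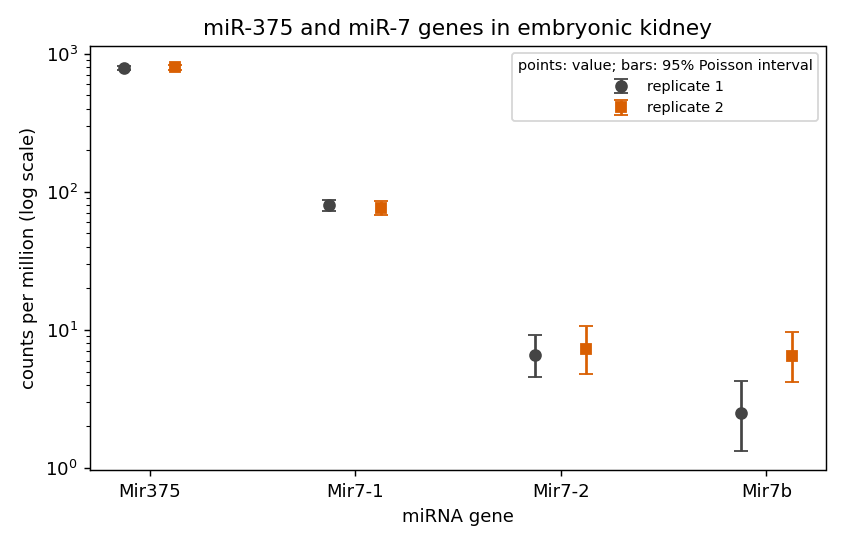
Points are CPM of each gene in replicate 1 (circles) and replicate 2 (squares) on a log scale, and bars are 95% exact Poisson intervals. Mir375 sits near 789 CPM, Mir7-1 near 77.8 CPM, and Mir7-2 and Mir7b below 11 CPM with wide intervals.

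Each mature miRNA gives a read of about its own length, 22 to 24 bases in the RefSeq list, so levels were not scaled by length. On the log2(CPM + 1) scale, Mir375 exceeded Mir7-1 by 3.33 ± 0.06 and Mir7-1 exceeded Mir7-2 by 3.31 ± 0.15 (SD, n = 2). In counts, Mir375 was 9.86 times Mir7-1 in replicate 1 and 10.4 times in replicate 2, and Mir7-1 was 12.2 times and 10.4 times Mir7-2. The difference between Mir7-2 and Mir7b was 0.63 ± 0.68, smaller than its spread, being 1.11 in replicate 1 and 0.15 in replicate 2. The order of these last genes is therefore not resolved, and no test was run, since 2 samples cannot reach p of 0.05 in an exact permutation test.

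Together the 4 genes held 0.0873% of all own-strand counts in replicate 1, with an exact binomial interval (95%, Clopper-Pearson) of 0.0848 to 0.0899, and 0.0884% in replicate 2 (0.0854 to 0.0915). Mir375 made up 89.9% of the sum in replicate 1 and 89.8% in replicate 2. The 3 miR-7 genes held 0.00886% and 0.00898%. Within them, Mir7-1 took 89.8% (86.7 to 92.4) in replicate 1 and 84.6% (80.2 to 88.3) in replicate 2. Mir7b took 2.82% (1.51 to 4.77) and 7.25% (4.70 to 10.6), and these intervals also just overlap.

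The counts of the miR-7 copies are uncertain where a read cannot be placed, and not all to the same degree. All 3 windows inside miR-7a-5p occur exactly in both Mir7-1 and Mir7-2. Of the 4 windows inside miR-7b-5p, 0 occur exactly in another miRNA gene, though 4 match with 1 mismatch. The shares and ratios of the copies may therefore compare unlike parts of the hairpins, which was not tested. The miR-7 genes had 461 counts in replicate 1 and 331 in replicate 2, beside 2960222 and 1862424 reads that mapped to several places. How many of those reads came from miR-7a-5p was not tested, and the tables do not split a gene's count by arm. Mir375, whose hairpin shares no such stretch with an annotated miRNA gene, is not known to be affected in this way, so the ratio of Mir375 to the miR-7 genes is uncertain. Of 87 counted genes whose listed mature sequence is also listed for another gene, 45 (51.7%) were detected, meaning at least 10 counts in each replicate. Mir7-1 and Mir7-2 are among the 87. Of 829 genes with no such sequence, 270 (32.6%) were detected. These shares do not show how many reads were lost, since a gene that loses reads can still reach 10 counts. On the strand opposite to each gene the 4 genes had 0 counts in either replicate, which allows up to 0.0735% of the Mir375 reads in replicate 1 and 0.103% in replicate 2. The limits are looser for the miR-7 genes, at 0.725% and 1.07% for Mir7-1, 8.82% and 11.1% for Mir7-2, and 23.1% and 12.5% for Mir7b.

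All 4 genes were among the 345 detected of the 1973 genes counted, and they spread over the range of levels. Among the 716 genes with a count, Mir375 ranked 92 by mean CPM, Mir7-1 193, Mir7-2 297 and Mir7b 312. Mir375 was above 73.3% of the detected genes and Mir7-1 above 44.1%, below the detected median of 114 CPM. Mir7-2 was above 13.9% and Mir7b above 9.86% of them. With a minimum of 20 counts in place of 10, Mir7b was no longer detected. Mir7j and Mir7k, whose symbols resemble those of the miR-7 genes, encode let-7j and let-7k in RefSeq and were not taken as miR-7. Mir7j had 1060 and 975 counts.

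**Figure D3:**
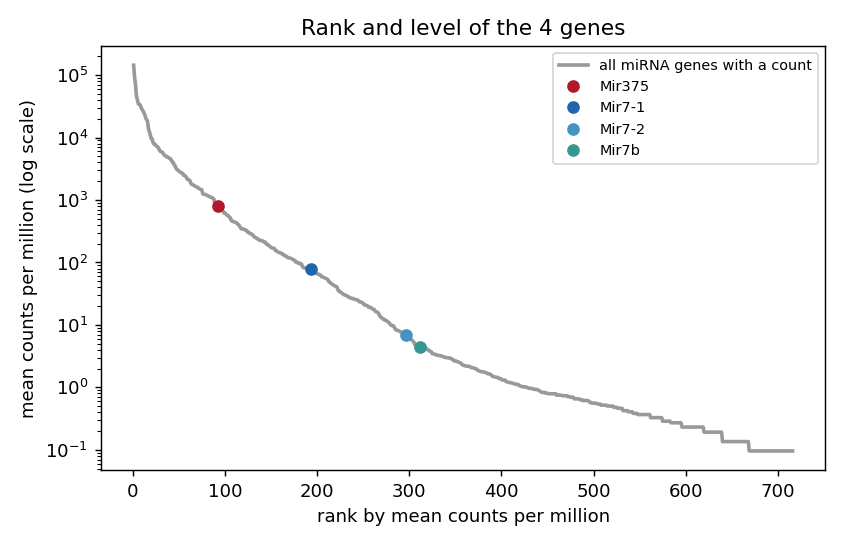
The grey line gives the mean CPM, on a log scale, of the 716 miRNA genes with a count, ordered by rank, and coloured points mark the 4 genes. Mir375 lies at rank 92 on the upper slope, and Mir7-2 and Mir7b lie at ranks 297 and 312 on the lower one.

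The genes of most similar level were found by the distance of log2(CPM + 1) over the 2 replicates, among detected genes. For Mir375 they were Mir674 at 828 ± 23.4 CPM, Mir141 at 719 ± 26.1 CPM and Mir532 at 859 ± 56.1 CPM (SD, n = 2). Mir141 belongs to the epithelial miR-200 family. For Mir7-1 they were Mir199a-2 at 75.5 ± 2.29 CPM, Mir1981 at 79.5 ± 0.434 CPM and Mir675, the miRNA of the imprinted H19 transcript, at 82.0 ± 3.43 CPM. Mir669h, Mir302b and Mir297a-2 were nearest to Mir7-2, and Mir1969, Mir378c and Mir103-1 to Mir7b, with means between 4.35 and 7.59 CPM. The likeness is one of level in 2 samples.

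Each detected gene was compared between the libraries with an exact binomial test (two-sided) over all 345, with TMM-scaled totals and Benjamini-Hochberg adjustment. The test sets 1 library against the other and takes only counting error into account. Mir7b alone among the 4 genes passed at an adjusted p below 0.05, while 53.6% of all detected genes did. Its log2 ratio of replicate 1 over replicate 2 was -1.39 (95% exact interval -2.48 to -0.36), with adjusted p = 0.00922 in the exact binomial test. Of the detected genes, 11 (3.19%) passed with at least a 2-fold difference, a log2 ratio of 1 or more in size, and 3 of these (0.87% of those tested), Mir7b included, were lower in replicate 1. Its ratio was the third in size of the 345. With an assumed coefficient of variation of 0.2 between the libraries, edgeR's exact test gave Mir7b an unadjusted p of 0.0506 and an adjusted p of 1, and called 2 genes (0.58%).

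The other 3 genes did not pass. The ratio for Mir375 was -0.02 (-0.09 to 0.05), with adjusted p = 0.619 in the same exact test, and its interval reached at most 0.09 in size. For Mir7-1 it was 0.06 (-0.16 to 0.28, adjusted p = 0.733, exact), and for Mir7-2 -0.17 (-0.94 to 0.61, adjusted p = 0.807, exact). The interval for Mir7-2 was wide and does not exclude a difference of up to 0.94 in size. The median size of the ratio over all detected genes was 0.24. Of the 11 genes past 2-fold, 7 had a mean count under 100, as Mir7b did, out of 96 such genes.

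**Figure D4:**
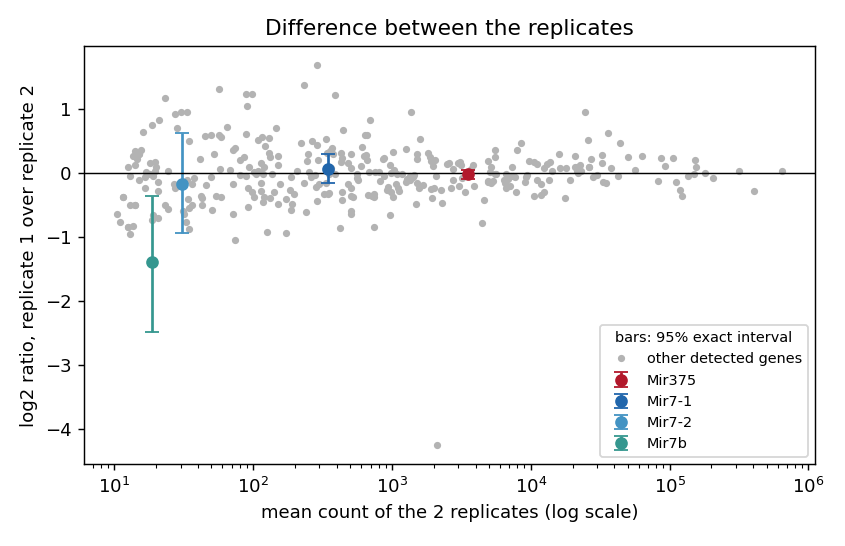
Each point is a detected miRNA gene, with its mean count on a log scale and its log2 ratio of replicate 1 over replicate 2. Bars on the 4 coloured points are 95% exact intervals. Mir7b lies at -1.39 with an interval below 0, while the intervals of Mir375, Mir7-1 and Mir7-2 span 0.

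Genes of other cell types that could bear on this pattern were set beside it. The 4 genes held 0.0879% ± 0.000783 of counts, against 0.0658% ± 0.00693 for 7 other miRNA genes described in pancreatic islets (SD, n = 2). Of these 7, 6 were detected, beside 345 of all 1973 genes. Mir132 and Mir212, a pair transcribed together and also described in neural cells, had 399 ± 61.2 and 55.3 ± 7.96 CPM. Mir204, found in beta cells and also in kidney, had 146 ± 14.8 CPM. Mir132 thus led the list, whose sum does not measure islet cells alone. Mir338 had 43.5 ± 12.3 CPM, and Mir153, which lies in the gene for a secretory granule protein of islet cells, had 8.18 ± 3.41 CPM. Mir184, which restrains beta cell growth, had 2.65 ± 0.480 CPM. Mir802, found in liver and pancreas, had 21 counts and 7 counts and was not detected. In the exact test between replicates, 2 of the 6 detected were higher in replicate 1, Mir132 and Mir204, and 2 were lower, Mir153 at -0.88 and Mir338 at -0.59. This compares with 27% and 26.7% of detected genes called higher and lower.

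Markers of exocrine pancreas were almost absent. The acinar genes Mir216a, Mir216b and Mir217 reached 9 counts together in replicate 1 and 15 in replicate 2, and none was detected. The neural list did not hold Mir132 and Mir212. It summed to 22.1 CPM in the first library and 41.3 CPM in the second, nearly all of it Mir137, at 108 and 145 counts. Mir124a-1, Mir124a-2 and Mir124a-3, known from neurons, had 0 counts in both replicates. They encode the same mature miRNA, so reads from them could be placed at several sites. The same limit holds for Mir9-2 and Mir9-3, which share the mature miR-9, so the list sum does not measure neural cells. Mir137 and Mir122 were lower in replicate 1, as Mir7b was, and 26.7% of detected genes were called lower there. The acinar sum was also lower there, at 1.73 CPM against 4.07 CPM, on few counts. The erythroid genes summed to 161 CPM in the first library and 77.6 CPM in the second, led by Mir451a at 81.9 ± 46.4 CPM (SD, n = 2), and so ran the other way, and the islet genes went in both directions. The part of other cell types in the Mir7b difference was not tested.

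The share of the 4 genes, 0.0879% ± 0.000783, was smaller than those of the miR-200 family, the miR-183 cluster and the stratified epithelium list by more than their SDs. The miR-183 cluster of sensory and neuroendocrine cells held 0.843% ± 0.0391, led by Mir182 at 4792 ± 211 CPM, and the list of stratified epithelium held 0.232% ± 0.0127, led by Mir203 at 1650 ± 74.3 CPM (SD, n = 2). Mir375, at 789 ± 6.95 CPM, exceeded Mir205 of that list, at 668 ± 52.5 CPM, by more than the SDs. Mir429, which led the miR-200 family, had 14037 ± 1789 CPM. Mir202, known from the gonad, had 0 counts in both libraries, which at the limit of 3 counts allows up to about 0.577 CPM in the first and 0.814 CPM in the second.

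**Figure D5:**
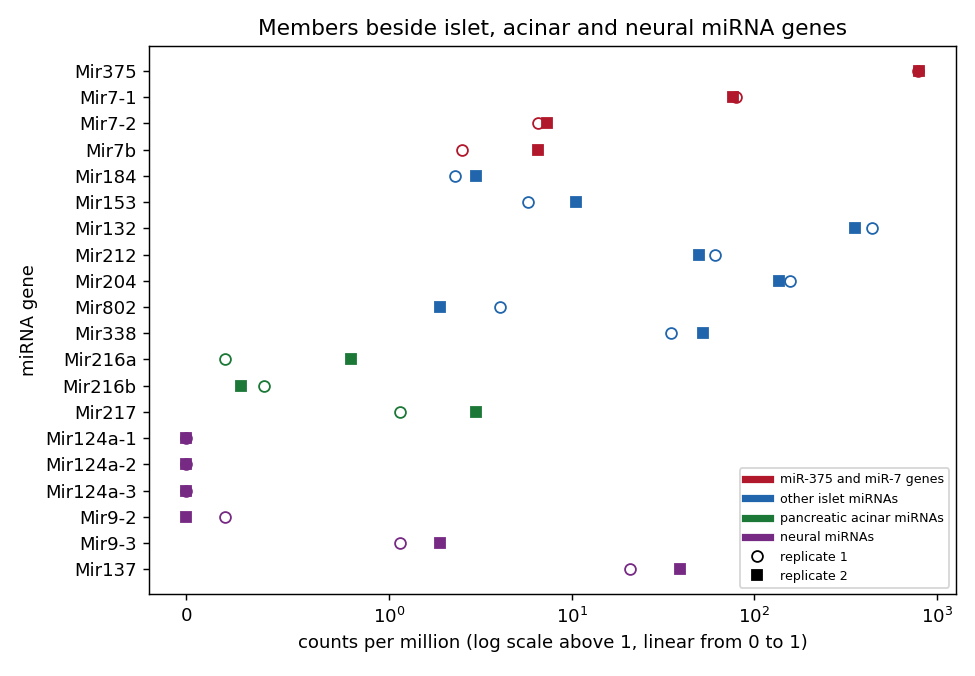
Rows are the 4 genes and the genes of the other islet, acinar and neural lists, with CPM in replicate 1 (open circles) and replicate 2 (filled squares), linear from 0 to 1 and on a log scale above. Mir375 is the highest row, and the acinar genes lie below 3 CPM.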

How the data were processed

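Raw counts per annotated miRNA gene were deposited by the authors, 1 table per library, for both strands, the gene's own strand and the opposite strand. Per the deposited file descriptions, the build was mm10 and the annotation GENCODE M4; the aligner and counter were not given in the sources used here. The 4 tallies that name no gene (unmapped, several places, no feature, ambiguous) were left out of totals and tests; unmapped reads were 16.8% and 14.1%, and reads on no feature 4.06% and 2.91%. Symbols and positions came from GENCODE M21, which matched 1894 of 1973 identifiers, and sequences from RefSeq. No genome was used, so transcripts were searched in its place. Mir9-1 of the neural list has no row.

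With 1 group there was no contrast, so the quasi-likelihood test of edgeR could not be used. Log values used a pseudocount of 1 CPM. The binomial test was tested on simulated counts of 343 genes for replicate 1 against replicate 2: it recovered 17 of 25 genes changed 1.5-fold, 18 of 21 at 2-fold, 15 of 15 at 4-fold and 18 of 18 at 8-fold, with 1 of 264 unchanged genes called. The simulated counts held counting error alone, the only error that the test allows for. They cannot show its rate of false calls where libraries differ by more than counting error. Totals were scaled with TMM (edgeR 4.0.16) and, as an alternative, DESeq2 1.42.0 size factors, in R 4.3.3. The rest used scipy 1.17.1 and numpy 2.4.6 for the tests, pandas 2.3.3 for tables and matplotlib 3.10.9 for figures, in Python 3.11.15.

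The members and lists were chosen with earlier results of these data known. The text names the 4 genes, the 3 nearest detected genes for each and every gene of the islet list. It also names the leading gene of each other list and Mir122. Mir124a-1 to Mir124a-3, Mir9-2, Mir9-3, Mir205, Mir7j, Mir7k and the acinar genes were added after their values were seen. Alternatives were the strand, the total, the count minimum, the pseudocount, the normalization, another test and each replicate alone.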

Additional observations from a re-analysis of the deposited data

How the results depend on the processing

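Of the recomputed values, 70 kept their direction and their side of the threshold, moved by less than the SD between replicates or, for counts of genes, stayed within 1.5 times. Among the last, 3 of the 4 genes were detected at a minimum of 20 counts. A further 15 moved, 1 reversed and 1 lost its call. Levels, shares and differences from 1 replicate alone always lie within the SD of 2 replicates around their mean. Those values among the 70 could not have moved, so they show no stability. Levels under TMM and DESeq2 scaling were nearly fixed too, as these factors offset each other across the replicates. A changed count minimum leaves each replicate ratio as it was, so only its adjusted p could change. Mir375 stood at 775 CPM with unstranded counts, 922 CPM without the most abundant gene in the total, and 411 counts per 1000000 reads of the file. Mir7-1 stood at 90.9 and 40.5, Mir7-2 at 8.10 and 3.62, and Mir7b at 5.26 and 2.40, in the last 2 of these settings, where Mir7b moved by less than its large SD. The summed share was 0.0862% unstranded, 0.103% without the most abundant gene, 0.0458% of all reads and 0.00892% with Mir375 left out. With a pseudocount of 5 CPM, Mir375 exceeded Mir7-1 by 3.26 and Mir7-1 exceeded Mir7-2 by 2.80 on the log2 scale. With DESeq2 size factors the Mir375 ratio between replicates turned to 0.011 (adjusted p = 0.855, exact binomial test), not called in either setting. The Mir7b ratio stayed between -1.40 and -1.35 in the binomial settings, with adjusted p from 0.00878 to 0.0187, and was -1.38 in edgeR's exact test with an assumed coefficient of variation of 0.2, where adjusted p was 1; that test called 2 genes in place of 185, and 2 in place of 11 at a log2 ratio of at least 1, as it adds spread between the libraries. At a minimum of 20 counts Mir7b had no value. Leaving out a replicate gave no replicate ratio. No paired analysis was possible because the series has 1 group. Depth limits Mir7-2 and Mir7b, with 13 to 34 counts.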
